A study of Mus musculus with 6 samples.

Results

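The genes described here carry glucose to pyruvate, pyruvate to lactate or into the mitochondrion, or sense oxygen. They are 34 genes chosen by symbol, and all 34 were found among the 32285 features of the count table by matching Ensembl gene identifiers to GENCODE M21 symbols. Their values were measured by RNA sequencing of type 1 conventional dendritic cells (cDC1s), which excel at cross-presentation, the display of antigen from outside the cell to CD8 T cells. The cells were sorted from the mLN of C57BL/6 mice 24 h after 50 µg of HDM (house dust mite) had been given into the nose. There were 3 libraries labelled Vps33B KO, of the genotype Vps33BdeltaDC (KO), a conditional knockout of the vesicle trafficking gene Vps33b, and 3 wild-type libraries (WT). Both groups had the same strain, HDM dose and time, and no group without HDM was analysed here. The sources used here do not give the promoter that drives the deletion, the age or sex of the mice, whether animals were pooled, or whether libraries came from separate animals. The p-values therefore measure the spread between these libraries, which may be technical.

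Glycolysis splits glucose into pyruvate in a chain of cytosolic enzymes and yields ATP without oxygen. Pyruvate is then reduced to lactate and exported, or carried into the mitochondrion and oxidised by the pyruvate dehydrogenase complex, which pyruvate dehydrogenase kinases switch off. Many of these genes are targets of hypoxia-inducible factor 1 (HIF-1), whose alpha subunit is marked for destruction by prolyl hydroxylases when oxygen is present. Activated dendritic cells are known to raise glycolysis, and several steps can be run by alternative enzymes encoded by related genes.

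The libraries held 11755944 to 17434247 counts in KO and 14949229 to 18450678 counts in WT. Vps33b itself was at 4.998, 7.01 and 8.29 CPM in the KO libraries, against 16.2, 19.1 and 13.8 CPM in the WT libraries, where CPM is the usual depth-scaled unit for counts, here with TMM library sizes. All KO values lay below all WT values, and the KO mean was 41.3% of the WT mean. An exact two-sided permutation test gave p = 0.1, the smallest that 3 against 3 libraries allow, and the edgeR adjusted p was 0.834. The mature dendritic cell markers (7 of 7 tested, Ccr7 and Fscn1 among the highest) summed to 18860 to 23260 CPM in KO and 18154 to 18832 CPM in WT. The 10 cDC1 markers, all detected, summed to 1669 to 2205 CPM in KO and 1872 to 2139 CPM in WT. Of these 10, 8 had a log2 fold change, KO over WT, below 0, and the median was -0.54. At an unadjusted edgeR p under 0.05, 4 were lower in KO, against 3.06% of all genes tested. For 3, every KO library lay below every WT library, against 5.19% of all genes tested. By adjusted p under 0.05 there were 0. Xcr1 averaged 8.84 CPM in KO and 23.7 CPM in WT, while Irf8, which held most of the sum, averaged 1539 CPM in KO and 1414 CPM in WT. Of other cells, the monocyte and macrophage markers were the most abundant, with a sum of 626.7 CPM in KO replicate 3, 166 and 178 CPM in the other KO libraries and 189 to 323 CPM in WT. All 9 of them were detected, with Lyz2 highest. Haemoglobin and Alas2 transcripts summed to between 3.18 and 178 CPM, T-cell markers to between 34.4 and 46.6 CPM, and pDC, B-cell, NK, neutrophil and stromal markers to under 60 CPM in every library. The cDC2 markers summed to 126 to 227 CPM in KO and 100.3 to 163 CPM in WT, nearly all of it Irf4 and Sirpa, with Cd209d at 0 in every library.

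None of the 34 members passed the test between KO and WT. All 34 passed the filter on low counts, and 0 had an edgeR quasi-likelihood adjusted p under 0.05, where the background was 0% of 12568 genes tested. DESeq2 called 10 and limma-voom 0 of all genes, and both called 0 members. At an unadjusted p under 0.05 there was 1 member lower in KO, Pdk1, where the background was 3.06%, and 0 members higher, where it was 2.71% (5.77% in either direction). Every KO library lay above every WT library for 1 member, Aldoa, where the background was 5.46%, and below every WT library for Slc2a3 and Pdk1, where it was 5.19%. The median log2 fold change, KO over WT, was 0.08 over the members and 0.00 over all genes tested, with 20 members above 0 and 14 below. For 28 members the log2 fold change was smaller than 0.3 in size, and for none was it larger than 1. In sorted bulk samples, fewer cells of a kind and less RNA per cell cannot be told apart.

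**Figure D1:**
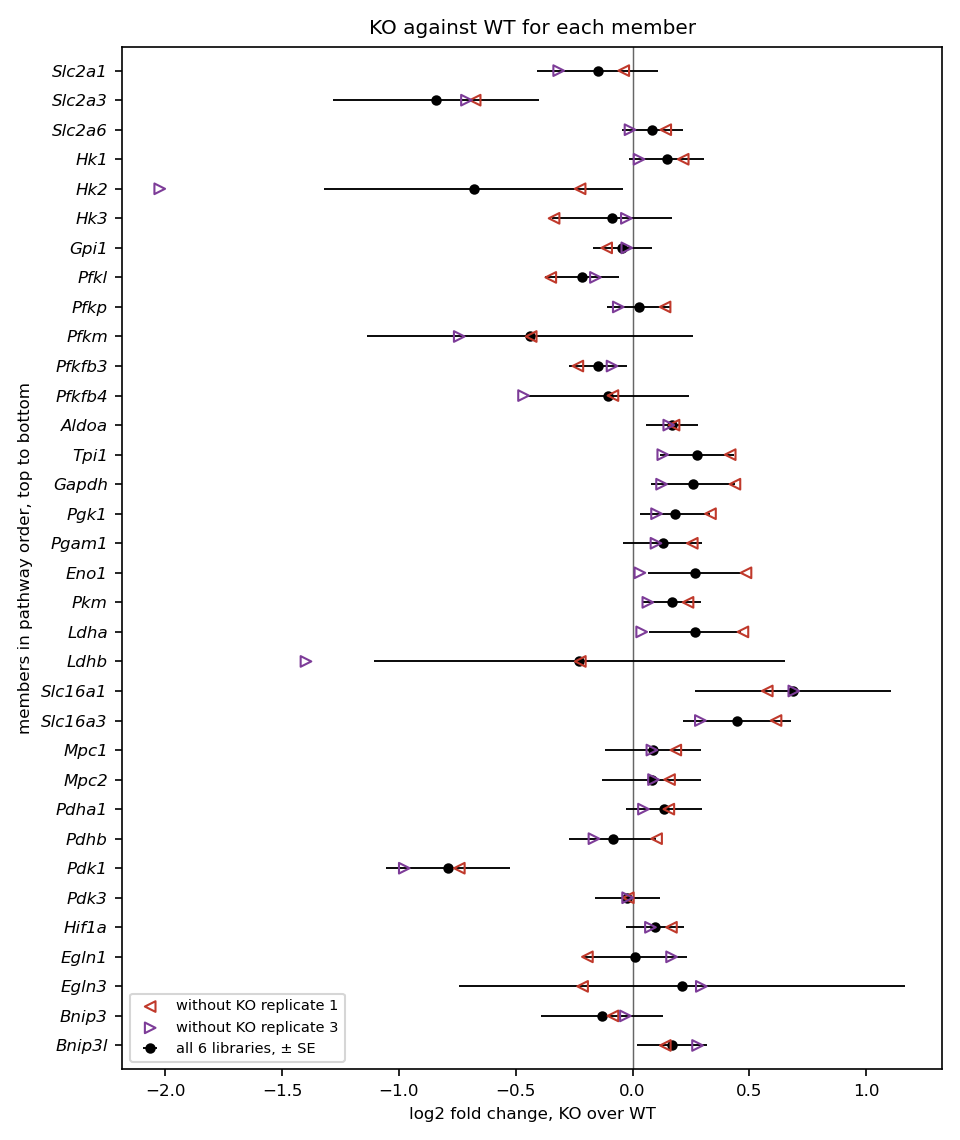
Log2 fold change of each of the 34 members, KO over WT (horizontal axis), in pathway order from top to bottom, with bars of 1 SE from the edgeR fit to 3 KO and 3 WT libraries. Open triangles give the fold change without KO replicate 1 and without KO replicate 3: Pdk1 stayed below 0 in both, while Eno1 and Ldha lay at 0.49 and 0.47 when KO replicate 1 was left out, and at 0.03 and 0.04 when KO replicate 3 was.

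The members made up 0.528 to 0.535% of the counts of the KO libraries and 0.523 to 0.556% of those of the WT libraries, and their levels spanned about 3 orders of magnitude. To set genes beside each other, CPM were divided by the length of the gene's merged exons in kilobases. On this scale Pfkfb3 was highest, with 260.4 ± 27.6 CPM per kb in KO and 289 ± 10.8 CPM per kb in WT (SD, n = 3 each). Aldoa, Pgk1, Slc2a6 and Pkm followed. Pfkm, Egln3, Slc2a3, Hk2 and Ldhb were lowest, all under 1 CPM per kb in each group mean. With the longest transcript as the length the order shifted by at most 5 places.

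Levels of several glycolytic genes are uncertain because near-identical copies of them exist. Reads that fit several places may have been dropped or split, and the sources used here do not say which. For 13 members, over 10% of the longest coding transcript matched other annotated transcripts at 95% identity or more over at least 200 bases. The share was 88.0% for Gapdh, with 74 copies, 94.2% for Bnip3, 85.6% for Eno1, 76.8% for Ldhb, 71.3% for Pdhb, 68.8% for Pgk1 and 65.5% for Pkm. The share was 0% for Ldha, Aldoa, Pfkfb3, Slc2a6 and Pdk1 among others. Exons of Mpc1 (23.1%), Bnip3 (22.3%), Pdha1 (16.2%) and Gpi1 (11.5%) also overlap genes on the opposite strand, and those of Pkm (15.3%) and Pfkm (10.2%) genes on the same strand.

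**Figure D2:**
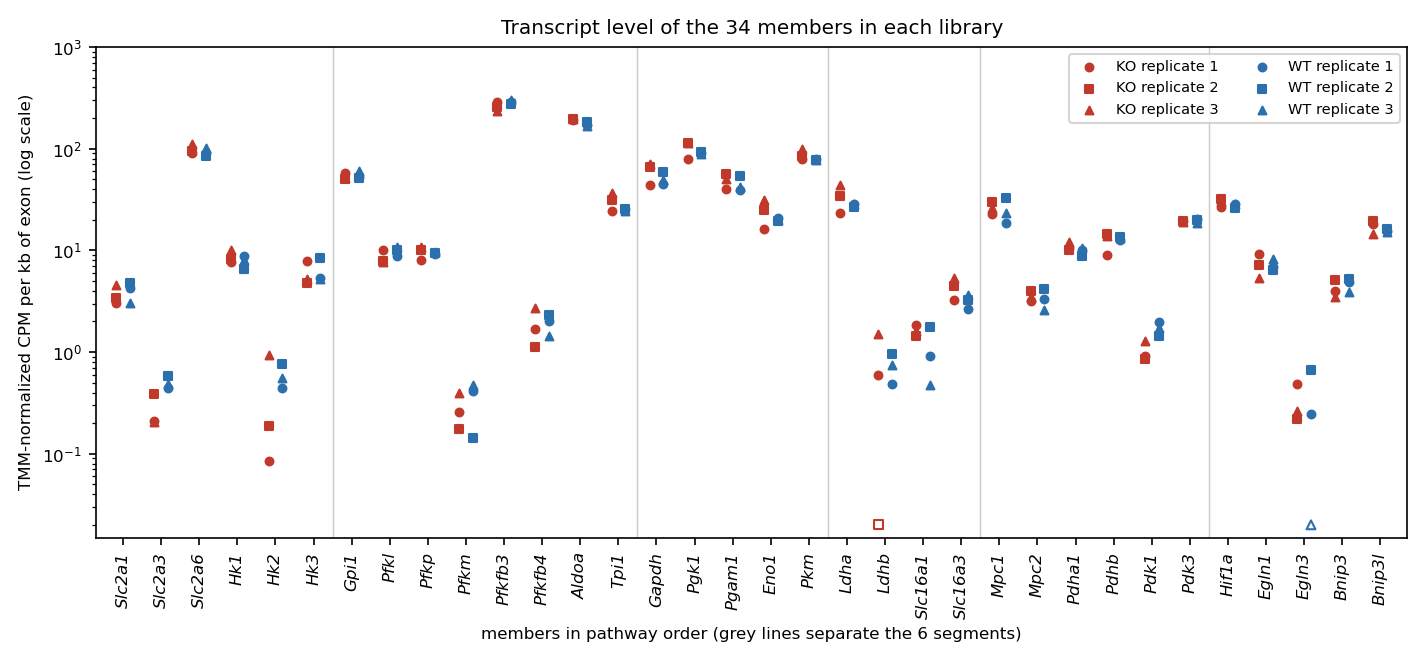
Level of each member in CPM per kb of exon (log axis), in pathway order, with KO libraries in red to the left and WT libraries in blue to the right of each tick. Open symbols at the bottom mark a count of 0, in KO replicate 2 for Ldhb and in WT replicate 3 for Egln3; Pfkfb3, Aldoa, Pgk1, Slc2a6 and Pkm sit at the top.

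Of the 34 members, 32 (all but Slc2a3 and Bnip3l) had a promoter window in the RefSeq table used. The 250 bases before the start were searched for ACGTG on either strand, a form of the core to which HIF-1 is known to bind. The form GCGTG was not searched for, so the core below means ACGTG only. The first window listed held it for 16 of the 32 (50%), against 16.6% of the first windows of 27025 genes. The members were chosen from pathways with many HIF-1 targets, so a higher share is partly built into the choice. Among the 5 members highest per kilobase, the first window held the core for Pfkfb3 and Pgk1 and not for Aldoa, Slc2a6 or Pkm. Later windows held it for Aldoa and for Pkm, in Pkm 75 bases before the start. In Aldoa it was a single site shared by overlapping windows, 126 and 202 bases before their starts. With every window counted, 18 of the 32 members held the core. Among the 7 genes from Tpi1 to Ldha, described together below, the first window held it for Pgk1, Pgam1 and Ldha. The first windows of Tpi1, Gapdh, Eno1 and Pkm did not. The windows of Pfkfb3 (the highest member), Pgk1 and Ldha are shown as examples that hold the core, with a second Ldha window that does not, and that of Pdk1 because it was the member with the smallest p. All are in the build GRCm38.p6, 5′ to 3′ on the gene's strand up to the base before the start, with the core or its reverse complement in capitals.
Pfkfb3 chr2:11553930-11554179 (minus strand): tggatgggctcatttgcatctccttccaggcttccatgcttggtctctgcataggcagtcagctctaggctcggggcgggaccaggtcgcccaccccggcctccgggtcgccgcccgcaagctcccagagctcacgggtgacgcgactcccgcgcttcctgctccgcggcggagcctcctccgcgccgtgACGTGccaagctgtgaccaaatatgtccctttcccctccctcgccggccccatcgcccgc
Pgk1 chrX:106186850-106187099 (plus strand): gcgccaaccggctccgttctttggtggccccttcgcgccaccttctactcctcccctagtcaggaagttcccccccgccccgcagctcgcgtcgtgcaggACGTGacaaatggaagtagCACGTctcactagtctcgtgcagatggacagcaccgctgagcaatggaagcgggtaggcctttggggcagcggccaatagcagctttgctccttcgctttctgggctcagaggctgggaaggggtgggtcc
Ldha chr7:46845554-46845803 (plus strand): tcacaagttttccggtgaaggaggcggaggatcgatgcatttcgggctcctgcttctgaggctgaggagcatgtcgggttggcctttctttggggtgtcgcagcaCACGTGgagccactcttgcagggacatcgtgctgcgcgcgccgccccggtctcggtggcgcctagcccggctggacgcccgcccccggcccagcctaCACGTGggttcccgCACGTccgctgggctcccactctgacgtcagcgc
Ldha chr7:46846832-46847081 (plus strand): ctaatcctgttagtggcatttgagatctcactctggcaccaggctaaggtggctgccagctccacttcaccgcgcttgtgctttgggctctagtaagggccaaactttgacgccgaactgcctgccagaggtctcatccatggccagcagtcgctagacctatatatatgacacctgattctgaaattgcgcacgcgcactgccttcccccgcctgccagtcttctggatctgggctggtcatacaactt
Pdk1 chr2:71872974-71873223 (plus strand): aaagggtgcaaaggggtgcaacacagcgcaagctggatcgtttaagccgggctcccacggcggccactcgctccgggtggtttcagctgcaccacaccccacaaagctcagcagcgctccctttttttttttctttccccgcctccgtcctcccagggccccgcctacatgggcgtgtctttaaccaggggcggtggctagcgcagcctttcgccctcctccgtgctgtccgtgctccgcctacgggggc
The first Ldha window held 5 matches on the 2 strands, of which 4 form a pair of CACGTG palindromes that are read on both strands, and the second held 0. A short unbroken stretch just after each start was sought in the gene's GENCODE M21 transcripts. Of these 2 windows, it was found only for the second. It was not found either for the first windows of Pgam1, Hif1a and Egln3, which hold the core. A miss does not show that no transcript starts there, since a nearby start or a short first exon also gives one. Pgk1 held 2 matches, 150 and 131 bases before the start, and the Pfkfb3 window shown held 1, 60 bases before it, while a second Pfkfb3 window held 2. Neither Pdk1 window, the one shown or the other, held ACGTG or its reverse complement. The one shown holds GCGTG, which was not counted. A match describes the sequence and does not show that a factor binds there.

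Glucose enters through the SLC2A transporters, and the transcript of Slc2a6 far exceeded those of the others. SLC2A6 (GLUT6) has been placed on lysosomes of mouse macrophages, while SLC2A1 (GLUT1) and SLC2A3 (GLUT3) are the widespread high-affinity carriers of the cell surface. Slc2a6 had 290, 304 and 355 CPM in the KO libraries, against 291, 275 and 328 CPM in the WT libraries, so the groups overlapped. Slc2a1 had 10.6, 11.97 and 15.9 CPM in KO and 14.9, 16.8 and 10.7 CPM in WT, again with overlap. Per kilobase, Slc2a6 held 96.2 ± 0.33% of the sum of the 3 transporters in KO and 95.3 ± 1.29% in WT. Slc2a3 (ENSMUSG00000003153, mm10 chr6:122727809-122801640, minus strand) had 1.52, 2.80 and 1.499 CPM in KO, against 3.19, 4.26 and 3.55 CPM in WT, so that every KO library lay below every WT library. Its log2 fold change of -0.84 ± 0.44 (SE) had an edgeR adjusted p of 0.834, and it rests on 274 counts in all 6 libraries. Leaving out KO replicate 2 gave -1.27, and leaving out KO replicate 1 gave -0.67.

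Hexokinases trap glucose as glucose 6-phosphate, and the transcripts found were mainly those of Hk1 and Hk3. Hk1 is the widespread form, Hk3 the form of myeloid cells and Hk2 the inducible form and a HIF-1 target. Hk1 had 66.0, 69.8 and 85.5 CPM in KO and 74.4, 55.4 and 69.1 CPM in WT. Hk3 had 28.7, 17.6 and 19.3 CPM in KO and 19.7, 31.2 and 19.4 CPM in WT, with KO replicate 1 and WT replicate 2 standing high. Per kilobase, Hk1 held 57.9 ± 7.23% and Hk3 39.5 ± 9.19% of the 3 hexokinases in KO, against 53.2 ± 10.3% and 42.9 ± 9.54% in WT. These shares rest on the merged exon length of Hk1, 8532 bases. With the longest transcript as the length, Hk1 held 70.5% and Hk3 27.8% in KO, against 66.2% and 31.1% in WT. Hk2 was low, with 0.507, 1.11 and 5.56 CPM in KO and 2.64, 4.53 and 3.28 CPM in WT. KO replicate 3 thus had the highest Hk2 value and the other KO libraries the lowest. The log2 fold change of Hk2 was -0.68 ± 0.64 (SE), and -2.02 without KO replicate 3, in which the monocyte and macrophage markers summed highest, at 626.7 CPM. The part of such cells in the Hk2 value was not tested.

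The next steps split the hexose, and they held the most abundant transcript of the set. Gpi1, phosphoglucose isomerase, was at 344 ± 27.2 CPM in KO and 354 ± 32.2 CPM in WT (SD, n = 3 each). Of the phosphofructokinases, which commit the sugar to glycolysis, Pfkp had 108, 135 and 144 CPM in KO and 125, 126 and 130 CPM in WT. Pfkl had 67.0, 52.3 and 51.4 CPM in KO and 58.3, 67.9 and 72.2 CPM in WT, a log2 fold change of -0.22 ± 0.16 (SE). The platelet form Pfkp and the liver form Pfkl were thus present at similar levels per kilobase, 9.64 ± 1.40 and 8.52 ± 1.31 CPM per kb in KO and 9.45 ± 0.195 and 9.91 ± 1.07 CPM per kb in WT. The muscle form Pfkm made up 1.49 ± 0.571% of the 3 in KO and 1.74 ± 0.883% in WT. Which of Pfkp and Pfkl led depended on the length used, with Pfkl ahead when the longest transcript was taken.

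Pfkfb3 makes a second fructose bisphosphate, the strongest activator of phosphofructokinase, and it exceeded its relative Pfkfb4 by far. Pfkfb3 (ENSMUSG00000026773, mm10 chr2:11471433-11554077, minus strand) had 2194, 1932 and 1781 CPM in the KO libraries, against 2190.1, 2098 and 2262 CPM in the WT libraries. KO replicates 2 and 3 were below all WT libraries, while KO replicate 1 lay among them. The log2 fold change was -0.15 ± 0.12 (SE, edgeR adjusted p = 0.885), and -0.23 without KO replicate 1. Pfkfb4 was at 8.97 ± 3.95 CPM in KO and 9.38 ± 2.25 CPM in WT, and Pfkfb3 held 99.3 ± 0.372% of the pair per kilobase in KO and 99.3 ± 0.181% in WT. Aldoa, which splits fructose bisphosphate and lies at mm10 chr7:126795234-126800751 on the minus strand (ENSMUSG00000030695), had 561, 568 and 574 CPM in KO, against 503, 528 and 484 CPM in WT. All KO values were above all WT values. The symbol Aldoa is carried by 2 features, and these values are those of the feature with the higher total count. Aldoa had a log2 fold change of 0.17 ± 0.11 (SE) and an edgeR adjusted p of 0.853, and it lay between 0.14 and 0.20 whichever single library was left out.

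The enzymes from triosephosphate isomerase to lactate dehydrogenase A, grouped after their values were seen, shared a pattern across the libraries in which KO replicate 1 stood apart from the other KO libraries. These are Tpi1, Gapdh, Pgk1, Pgam1, Eno1, Pkm and Ldha, which convert triose phosphate to pyruvate and lactate. Their summed level was 1066, 1401 and 1558 CPM in the KO libraries, against 1134, 1210.3 and 1139 CPM in the WT libraries. All 7 lay above every WT library in KO replicate 2 and 6 of the 7 in KO replicate 3, whereas in KO replicate 1 none did and 6 lay below the WT mean. Eno1, enolase, shows this with 87.1, 133 and 169.8 CPM in KO and 111, 104 and 108 CPM in WT. Ldha, which reduces pyruvate to lactate, had 77.6, 114 and 146 CPM in KO and 95.3, 88.8 and 95.2 CPM in WT. For both genes the KO values lay on either side of a narrow WT range.

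**Figure D3:**
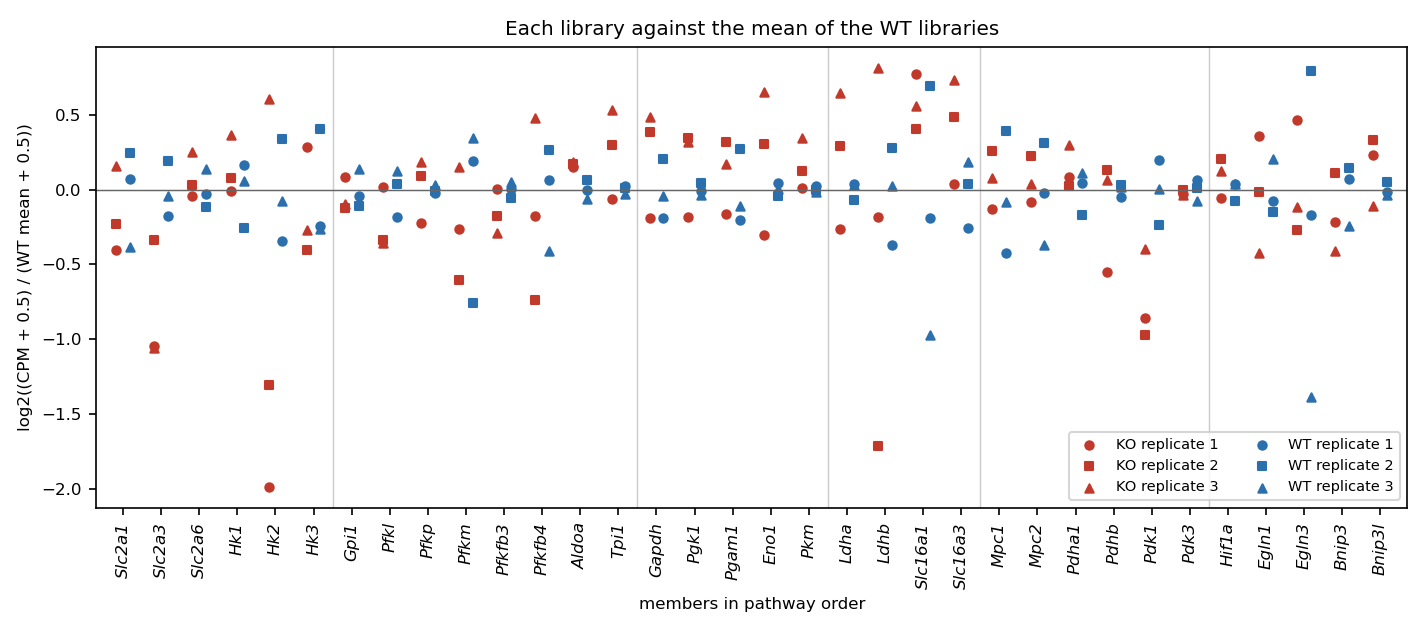
Each library's level of each member relative to the WT mean, as log2((CPM + 0.5) / (WT mean + 0.5)), in pathway order, with KO in red to the left and WT in blue to the right of each tick. From Tpi1 to Ldha the KO square and triangle (replicates 2 and 3) lie above 0, and the KO circle (replicate 1) lies below 0 except for Pkm, where it is just above.

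The remaining members of this run were also highest in KO replicate 2 or 3. KO replicate 1 was lowest for Tpi1, Pgk1 and Gapdh, in Gapdh almost level with WT replicate 1. For Pkm and Pgam1 it lay among the WT libraries. Tpi1 had 66.5, 85.4 and 100.6 CPM in KO and 70.4, 69.9 and 67.8 CPM in WT. Gapdh had 184, 275 and 294 CPM in KO and 184, 242 and 204 CPM in WT. Pgk1, the first step that makes ATP, had 178, 258 and 253 CPM in KO and 201, 209 and 197 CPM in WT. In each of these 3 the replicates 2 and 3 of KO were the highest of the 6 libraries. Pkm, pyruvate kinase, had 393, 425 and 494 CPM in KO and 395, 388 and 384 CPM in WT, and the table does not tell its M1 and M2 transcripts apart. Pgam1 was at 97.5 ± 16.2 CPM in KO and 89.4 ± 16.2 CPM in WT (SD, n = 3 each), with WT replicate 2 between the KO libraries.

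The log2 fold changes of the 7 genes lay between 0.13 and 0.28, with a median of 0.26 and the smallest edgeR adjusted p at 0.839. Since the genes were grouped for this pattern, their shared sign is a description and supports nothing. Without KO replicate 1 the median of the 7 became 0.42, and without KO replicate 3 it became 0.10. Other measures also differed between the KO libraries. The mature dendritic cell markers summed to 18860, 21288 and 23260 CPM in KO, against 18832, 18434 and 18154 CPM in WT. Mitochondrially encoded genes held 1.81, 2.52 and 2.34% of the counts in KO and 1.82, 2.43 and 1.98% in WT. The monocyte and macrophage markers, 9 of 9 detected, summed to 178, 166 and 626.7 CPM in KO, against 323, 189 and 204.5 CPM in WT. The cDC2 markers, 6 of 7 detected, summed to 126, 139.5 and 227 CPM in KO, against 163, 100.3 and 113 CPM in WT. Each of these marker sums was highest in KO replicate 3, as the run was. The mature dendritic cell sum had the same order of the KO libraries as the run and lay above every WT library in each. In KO replicate 2 the monocyte and macrophage sum lay below every WT library, and the cDC2 sum lay among them. The part of any of these in the glycolytic values was not tested.

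Which members had an unadjusted p under 0.05 changed with the library left out, and none had an adjusted p under 0.05 in any of these fits. Without KO replicate 1 there were 9, where the background was 12.3%: Tpi1, Gapdh, Pgk1, Eno1, Ldha and Slc16a3 with positive log2 fold changes, and Pfkl, Pfkfb3 and Pdk1 with negative ones. The smallest adjusted p among them was 0.229, for Eno1. There was 1 without KO replicate 2 (Slc2a3, background 2.9%), 2 without KO replicate 3 (Hk2 and Pdk1, background 3.36%) and 0 without WT replicate 1 (background 4.53%). There were 2 without WT replicate 2 (Slc16a1 and Pdk1, background 6.46%) and 1 without WT replicate 3 (Pdk1, background 4.82%).

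Eno1 was not the main enolase by count, since its relatives Eno3 and Eno2 were higher. These are known mainly as the muscle and neuronal enolases, and they come from the list of other glycolytic genes. Per kilobase, Eno3 was at 279 ± 27.1 CPM per kb in KO and 254 ± 13.9 CPM per kb in WT, and Eno2 at 55.5 ± 15.97 CPM per kb in KO and 61.7 ± 2.55 CPM per kb in WT. Eno1 was at 24.2 ± 7.70 CPM per kb in KO and 20.035 ± 0.615 CPM per kb in WT (SD, n = 3 each). No other annotated transcript matched Eno2 or Eno3 at 95% identity or more over at least 200 bases. By the same measure 85.6% of Eno1 is repeated in copies, so the level of Eno1 is uncertain. Eno2 had 348, 219 and 216 CPM in KO, against 286, 304 and 281 CPM in WT, the reverse order of the KO libraries to that of Eno1.

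Of the pair Ldha and Ldhb, Ldha accounted for nearly all transcript, and the lactate carriers were low. Ldha held 98.1 ± 1.73% of the pair per kilobase in KO and 97.5 ± 0.870% in WT. Ldhb, the form that favours pyruvate, had 0.942, 0 and 2.38 CPM in KO and 0.769, 1.49 and 1.16 CPM in WT. A count of 0 in KO replicate 2 allows up to 0.175 CPM, for counting error only. Slc16a3 (MCT4), the lactate exporter of glycolytic cells and a HIF-1 target, had 17.2, 23.7 and 28.2 CPM in KO and 13.96, 17.2 and 19.2 CPM in WT. KO replicates 2 and 3 lay above all WT libraries and KO replicate 1 was within them. This gave a log2 fold change of 0.45 ± 0.23 (SE, edgeR adjusted p = 0.834). Slc16a1 (MCT1) had 8.26, 6.31 and 7.06 CPM in KO and 4.01, 7.78 and 2.12 CPM in WT, a log2 fold change of 0.69 ± 0.42 (SE, adjusted p = 0.853). It was 1.22 without WT replicate 2, the WT library that overlapped the KO range, and 0.32 without WT replicate 3.

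At the gate to the mitochondrion, Pdk1 was the member with the smallest p. Pdk1 and Pdk3 encode kinases that inactivate pyruvate dehydrogenase, and Pdk1 is a known HIF-1 target. Pdk1 (ENSMUSG00000006494, mm10 chr2:71873224-71903858, plus strand) had 7.17, 6.60 and 10.1 CPM in the KO libraries, against 15.4, 11.3 and 13.4 CPM in the WT libraries. All KO values lay below all WT values. The means were 7.94 ± 1.85 CPM in KO and 13.4 ± 2.07 CPM in WT (SD, n = 3 each), and the log2 fold change was -0.79 ± 0.27 (SE). The unadjusted edgeR p was 0.0122 and the adjusted p 0.834, so the difference did not pass over all genes. The log2 fold change stayed between -0.98 and -0.67 when any single library was left out, with an adjusted p of 0.788 by DESeq2 and between 0.365 and 1.00 over the alternatives. Leaving out KO replicate 2 gave an unadjusted p of 0.0542, and leaving out WT replicate 1 gave 0.0517. Pdk3 was even across the libraries, at 49.2, 50.3 and 49.0 CPM in KO and 52.6, 50.7 and 47.7 CPM in WT. Per kilobase, Pdk1 made up 5.01 ± 1.16% of the pair in KO and 8.05 ± 1.07% in WT, with no overlap of the groups.

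**Figure D4:**
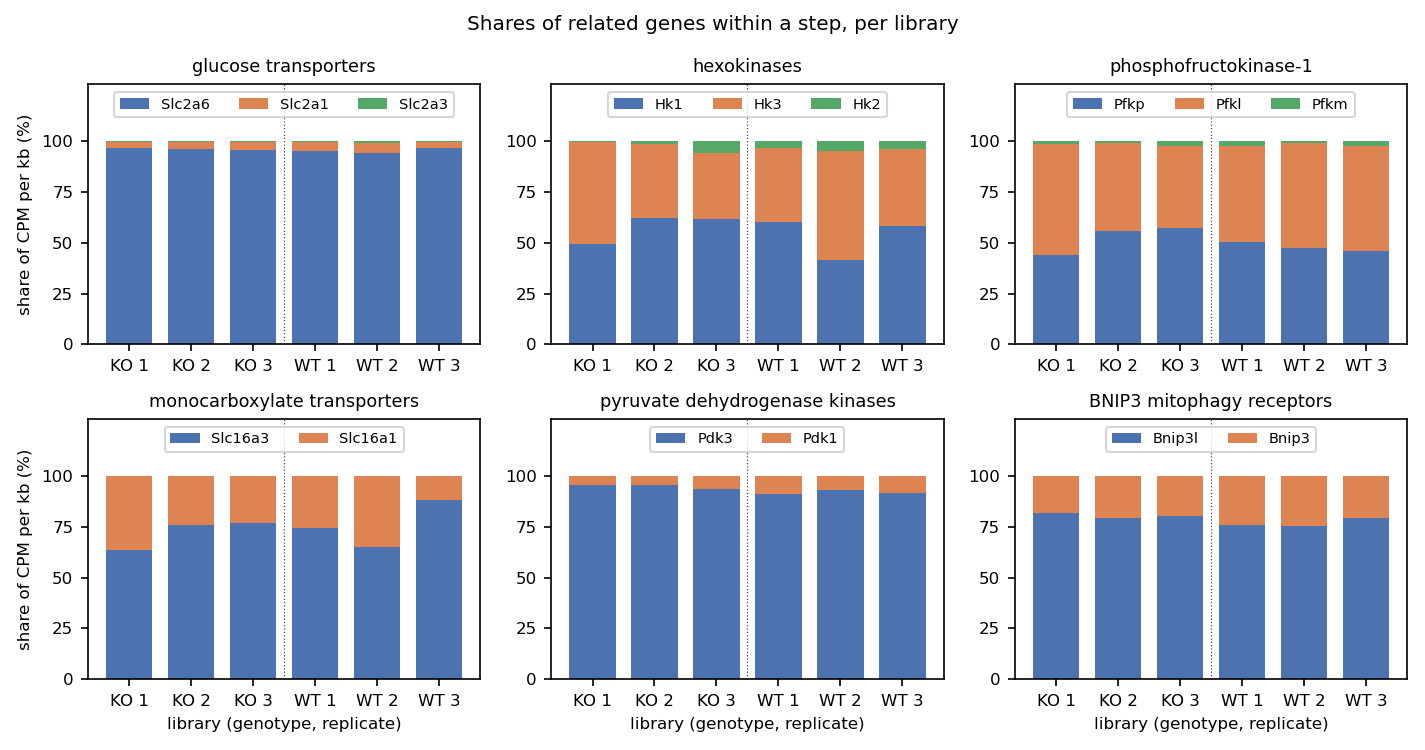
Share of each related gene within a step, as a percentage of the step's summed CPM per kb, in the 3 KO libraries (left of the dotted line) and the 3 WT libraries (right). Only members are counted, so other genes of a step, such as Pdk2 and Pdk4, are left out. On this length scale Slc2a6 and Pdk3 hold over 90% of the members' sum for their steps in every library. Hk1 with Hk3 and Pfkp with Pfkl divide theirs. The Pdk1 share is smaller in each KO library (4.14 to 6.32%) than in each WT library (6.83 to 8.81%).

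The carrier and the first subunit of the pyruvate dehydrogenase complex had overlapping values in KO and WT. Mpc1 and Mpc2 together form the mitochondrial pyruvate carrier. Mpc1 was at 54.5 ± 7.32 CPM in KO and 51.7 ± 14.9 CPM in WT, and Mpc2 at 26.02 ± 2.87 CPM in KO and 24.9 ± 5.88 CPM in WT. WT replicate 2 was highest for both, at 67.8 and 30.9 CPM. Pdha1, the E1 alpha subunit, was at 40.7 ± 4.21 CPM in KO and 36.8 ± 3.68 CPM in WT. Pdhb, the E1 beta subunit, had 34.6, 56.0 and 53.4 CPM in KO and 49.4, 52.0 and 51.7 CPM in WT, so that KO replicate 1 alone was low.

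The oxygen-sensing genes showed a high Hif1a and little Egln3. Hif1a, the alpha subunit of HIF-1, had 157, 189 and 179 CPM in KO and 168, 155 and 168 CPM in WT, a log2 fold change of 0.10 ± 0.12 (SE). HIF-1 is controlled mainly through the stability of this protein, which transcript counts do not measure. Egln1 (PHD2), the main prolyl hydroxylase, was at 25.9 ± 7.03 CPM in KO and 25.8 ± 3.47 CPM in WT (SD, n = 3 each). Egln3 (PHD3), itself a HIF-1 target, had 1.30, 0.584 and 0.706 CPM in KO and 0.659, 1.76 and 0 CPM in WT, where a count of 0 allows up to 0.159 CPM. The mitophagy receptors Bnip3 and Bnip3l, which mark mitochondria for removal, are HIF-1 targets too. Bnip3l had 70.4, 75.4 and 55.6 CPM in KO and 59.2, 62.1 and 58.5 CPM in WT, and Bnip3 9.05, 11.5 and 7.85 CPM in KO and 11.2, 11.8 and 8.89 CPM in WT. Their log2 fold changes were 0.17 ± 0.15 and -0.13 ± 0.26 (SE). Per kilobase, Bnip3l held 80.7 ± 1.33% of the pair in KO and 76.9 ± 2.19% in WT, with a small overlap between KO replicate 2 (79.37%) and WT replicate 3 (79.44%).

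Other genes of the same pathways gave 0 calls as well. Of 29 further glycolytic genes 18 were tested, with 8 above 0 and 10 below and a median log2 fold change of -0.07. Eno3, Eno2 and Bsg, which encodes the chaperone of the lactate carriers, were the most abundant, and Bsg was at 140 ± 15.7 CPM in KO and 123 ± 9.17 CPM in WT. Of 12 further pyruvate genes 11 were tested, with a median of 0.02, and Cs, citrate synthase, was at 317 ± 18.1 CPM in KO and 303 ± 25.2 CPM in WT. Dld and Me2 had log2 fold changes of 0.08 and 0.14. The pentose phosphate pathway, with 8 of 8 tested, had a median of 0.11, and Tkt, Taldo1 and Pgls had 0.14, 0.19 and 0.18. Of 13 regulators of glucose uptake and glycolysis 11 were tested, with a median of -0.01, and Akt1, Arrdc4 and Tbk1 had 0.19, -0.08 and -0.03.

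Of 10 oxygen-sensing genes 9 were tested, with a median log2 fold change of 0.01. Vhl, the ubiquitin ligase subunit that recognises hydroxylated HIF-1 alpha, had 505, 479 and 481 CPM in KO, against 446, 365 and 442 CPM in WT. Its KO libraries were all above its WT libraries, with a log2 fold change of 0.23 ± 0.12 (SE) and an edgeR adjusted p of 0.834. Egln2 and Cited2 had 0.01 and -0.19. Of 18 further HIF targets 15 were tested, with 5 above 0 and 10 below and a median of -0.10. Ndrg1 had 484, 849 and 914.5 CPM in KO, against 610.3, 515 and 563 CPM in WT, so that KO replicates 2 and 3 were again high and KO replicate 1 low. Bhlhe40 and Plin2 had log2 fold changes of 0.02 and -0.05. At an unadjusted p under 0.05 there was 1 of the 72 genes tested in these 6 lists, or 1.39%, against 5.77% of all genes tested. This was Fam162a, a HIF target named after its values were seen, at 8.80 ± 0.916 CPM in KO and 5.32 ± 1.49 CPM in WT (SD, n = 3 each).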

How the data were processed

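Per the labels' protocols, Trizol RNA of the sorted cDC1s was sequenced with paired ends on an Illumina NovaSeq. The values the authors deposited are raw whole-number counts for each Ensembl gene. The submitters' processing notes name HISAT2 2.0.5, HTSeq and mm10; the sources used here do not give the annotation, the strand setting or the handling of multiply mapped reads. Columns were matched to samples by the library label. GENCODE M21 (mm10) named 99.8% of features; a symbol shared by several features was given to the one with the highest total.

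Genes kept by filterByExpr (12568) got TMM factors and were compared, KO over WT, in a genotype-only model by the quasi-likelihood test of edgeR 4.0.16 (R 4.3.3, robust), with Benjamini-Hochberg adjustment over all genes and a threshold of 0.05. The SE is the log2 fold change divided by the square root of F. The test was also run on counts simulated with known fold changes, and the share of them that it recovered is not given here. The common biological coefficient of variation was 30.1%. Copies were sought with minimap2. The members, lists and tests were chosen with earlier results of these data known. Named were all members, Vps33b and, of each other list, the 3 tested genes with the highest mean CPM; Fam162a and the marker genes named were picked after their values were seen. Replicate numbers are shared between groups, but deviations of same-numbered libraries correlated between -0.00126 and 0.0281 over genes, so they were not treated as pairs. The limits given for counts of 0 cover counting error only.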

Additional observations from a re-analysis of the deposited data

How the results depend on the processing

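The fits were repeated with DESeq2 1.42.0 and limma-voom 3.58.1, with 2 other scalings (RLE, upper quartile), without the expression filter or with one of 1 CPM in 3 libraries (which left 33 members), without robust estimation, without T-cell receptor, antibody and globin genes, with a replicate block, with length and GC offsets, and leaving out each library; the earlier quasi-likelihood method of edgeR was added after seeing the data. No member passed the adjusted threshold under any of the 17, and the smallest adjusted p was 0.229. Over all genes, 3 passed without a filter, 10 with DESeq2 and 0 to 7 with a library left out (7 without KO replicate 1). Those at an unadjusted p under 0.05 numbered 376 to 1621 with a library left out: the 3 fits lacking a KO library gave 1621, 376 and 444, for replicates 1, 2 and 3 in that order. Members at an unadjusted p under 0.05 numbered 2 with the replicate block, where 7.5% of all genes did, and 2 with length and GC offsets, where 6.36% did (Pdk1 and Slc16a3 in both), and 0 to 9 with a library left out (0 without WT replicate 1, 9 without KO replicate 1). The cause of these shifts was not tested. The replicate block changed no call at the adjusted threshold. The members' median log2 fold change was 0.03 to 0.14 with a library left out, or 0.02 to 0.15 relative to all genes. The share of Pdk3 in its pair was 3.03 percentage points higher in KO than in WT per kilobase, and 7.19 without length scaling. Of the members, 22 kept their sign under every alternative. Egln1 was at -0.011 with limma-voom and Gpi1 at 0.045 with length and GC offsets. With a library left out the log2 fold change spanned 0 for Egln1 (-0.19 to 0.17), Egln3 (-0.44 to 1.37), Gpi1 (-0.11 to 0.032), Hk3 (-0.34 to 0.15), Ldhb (-1.40 to 0.50), Mpc1 (-0.090 to 0.32), Mpc2 (-0.079 to 0.25), Pdhb (-0.24 to 0.10), Pdk3 (-0.061 to 0.011), Pfkfb4 (-0.47 to 0.18), Pfkp (-0.061 to 0.14) and Slc2a6 (-0.011 to 0.16). Depth limits Pfkm, Egln3, Slc2a3, Hk2 and Ldhb, with 74 to 274 counts each over all libraries.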
